A study of Danio rerio with 4 samples.

Results

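The outermost megabase of each zebrafish chromosome was described in ATAC-seq libraries, an assay in which an enzyme inserts sequencing adapters into DNA left free by nucleosomes. The first and the last 1 Mb of chromosomes 1 to 25 were taken by position alone, without the right end of chromosome 4. This gave 49 ends, cut into 4900 windows of 10 kb out of 134507 windows on the 25 chromosomes, or 3.64% of their length. The ends also held 2029 of the 29639 peaks obtained by merging the authors' 2 peak lists. Positions are in the zebrafish build GRCz11, the left end being the one where numbering starts.

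The study compared embryos labelled actl6a knockdown with embryos labelled WT. The first had received an antisense morpholino that blocks actl6a translation, and the others a standard control morpholino, in each case by injection at the 1-cell stage. Each group had 2 libraries. Both groups were in a transgenic line in which the Na,K-ATPase alpha1A4 reporter makes pronephric epithelia fluoresce, and were taken at 30 hours post fertilisation. For a library, about 10 duct fragments from 15 pooled embryos were picked by eye for fluorescence and 10000 to 20000 viable cells were used, so that other tissue carried along with the ducts is part of the signal. The labels do not say that libraries came from separate clutches, so p-values measure only the spread between these libraries. The duct identity was not checked against marker genes and windows were not assigned to genes, because no GRCz11 sequence or annotation was used here.

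Chromosome ends are capped by telomere repeats, and the subtelomeric DNA next to them is often rich in repeats and recently duplicated sequence. In zebrafish males, meiotic crossovers are concentrated near the ends. The protein made from actl6a, known in mammals as BAF53A, is an actin-like subunit of the SWI/SNF (BAF) chromatin remodelling complex and of the INO80 and TIP60 complexes, which move, exchange or modify nucleosomes. The ducts are the epithelial tubes that carry urine from the embryonic kidney.

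Signal is given as a window's mean coverage divided by the mean of the same library over chromosomes 1 to 25, so that 1 is the genome mean. The size of the smallest step in the coverage values corresponded to 148 and 165 M reads in the actl6a libraries and 117 and 136 M in the control libraries. Depth inferred in this way did not overlap between the groups, the actl6a libraries being the deeper ones. Group and depth therefore cannot be told apart in any comparison between the groups. An end window of median signal held between 926 and 1304 reads, and the median difference between replicates of a window at the ends was 0.09 in the actl6a group and 0.10 in the control group on the log2 scale, against a counting error of 0.04.

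Coverage was higher at the chromosome ends than inside the chromosomes in every library. The mean signal of the end windows was 1.25 and 1.21 in the actl6a libraries and 1.30 and 1.27 in the control libraries, whereas the other windows averaged 0.991 and 0.992 in the actl6a libraries and 0.989 and 0.990 in the control libraries. The median end window was at 1.1 in both actl6a libraries and at 1.11 and 1.12 in the control libraries, and the median of the other windows at 0.930 and 0.933 in the actl6a libraries and at 0.915 and 0.921 in the control libraries. All 4 libraries lay on the same side, and the mean over the ends of log2(end/rest of its chromosome) differed from 0 with a two-sided exact sign-flip p of 0.125, the smallest that 4 libraries allow. In bulk tissue, more cells with open DNA at a place and more cuts per cell there cannot be told apart. None of the 4 libraries was of untreated genomic DNA. Open DNA therefore also cannot be told apart from repeated or duplicated sequence that gathers reads.

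Taken singly, 45 of the 49 ends were higher than the rest of their own chromosome, 3 were lower and 1, the right end of chromosome 10, was not called (limma, adjusted p under 0.05 over all 1343 blocks of 1 Mb). Among all blocks tested in this way, 28.6% were called higher and 59.6% lower. The ratio of end to rest had a median of 1.17 and ran between 0.886 and 3.42. An end stood, in the median, at the 95th percentile of the interior blocks of its chromosome, and 46 of 49 ends reached the 90th percentile. The left ends had a median log2 ratio of 0.24 (n = 25) and the right ends one of 0.19 (n = 24).

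**Figure D1:**
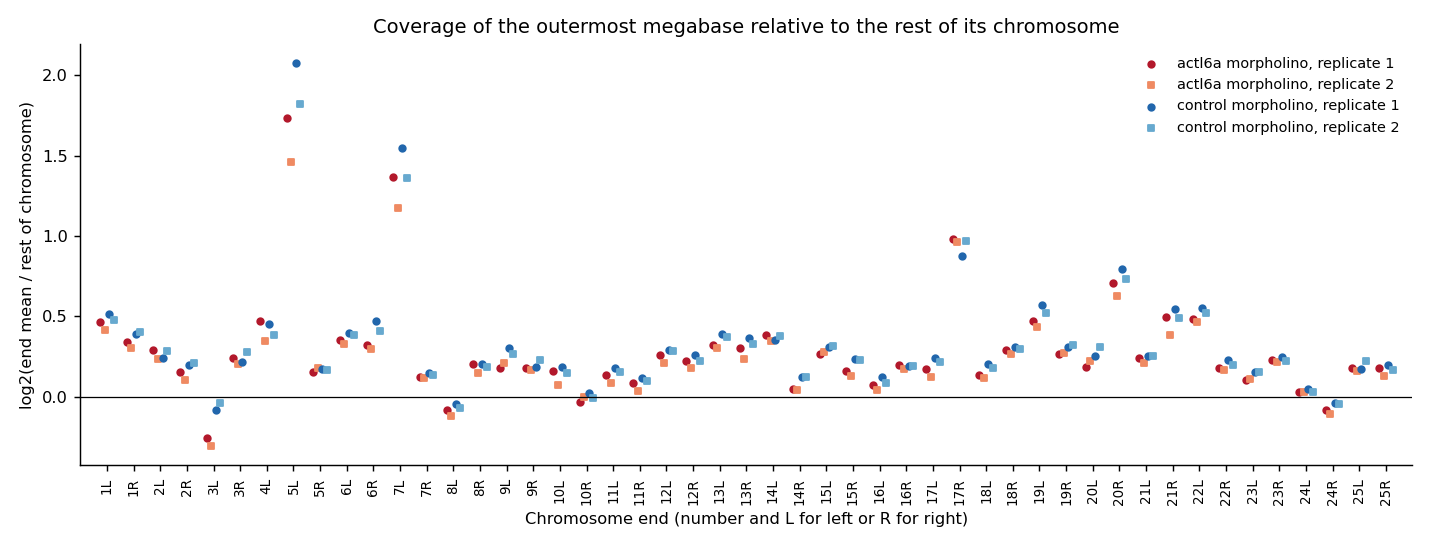
Coverage of each of the 49 chromosome ends relative to the rest of the same chromosome, on the log2 scale, with 1 point for each library (actl6a libraries in red and orange, control libraries in blue). Most ends sit above 0, the left ends of chromosomes 5 and 7 and the right end of chromosome 17 stand highest, and the left end of chromosome 3 lies below 0 in all 4 libraries.

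The left end of chromosome 5 was the highest of all, with a log2 ratio of 1.73 and 1.46 in the actl6a libraries and 2.08 and 1.82 in the control libraries. Next came the left end of chromosome 7 with 1.37 and 1.17 in the actl6a libraries and 1.55 and 1.36 in the control libraries. The right end of chromosome 17 had 0.98 and 0.96 in the actl6a libraries and 0.87 and 0.97 in the control libraries. The right end of chromosome 20 came after them with a mean of 0.72. In these 4 ends, on chromosomes 5, 7, 17 and 20, the median window had a signal of 1.1, 1.20, 1.18 and 1.14, close to the median of all end windows. Without windows above 3 times the genome mean, the log2 ratio was 0.21 at the left end of chromosome 5, 0.40 at that of chromosome 7 and 0.39 at the right end of chromosome 17. The other 41 ends called higher lay between 0.03 and 0.51.

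Windows above 10 times the genome mean numbered 6 at the ends, all of them in those 4 ends, and 147 in the rest, or 0.122% and 0.113% of the windows. The first 10 kb of chromosome 7 was the brightest end window, with a signal of 138 and 105 in the actl6a libraries and 173 and 139 in the control libraries. On chromosome 5, chr5:820001-830000 had 118 and 89.4 in the actl6a libraries and 160 and 126 in the control libraries. The next window, chr5:830001-840000, had 81.9 and 60.2 in the actl6a libraries and 111 and 86.1 in the control libraries. Thus on chromosome 5 the bright stretch, which also took in chr5:810001-820000, was not at the tip but more than 800 kb inside it. On the right side, chr17:53381101-53391100 had 76.3 and 76.8 in the actl6a libraries and 61.6 and 73.2 in the control libraries, and chr20:55161333-55171332 had 45.5 and 35.3 in the actl6a libraries and 54.4 and 44.3 in the control libraries. The groups overlapped at the chromosome 20 window and not at the other 4, but none of the 5 differed at an adjusted p under 0.05 (limma). How reads that match several places were handled is not given in the sources used here.

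The excess at the ends did not rest on those windows. With windows above 3 times the genome mean left out everywhere, 48 ends were higher than the rest of their chromosome and 1 was lower, and with medians in place of means 47 were higher and 1 lower. Windows above 2 times the genome mean made up 2.67% of the end windows (131) and 0.667% of the rest (864). Windows below 0.2 times the genome mean made up 0.265% of the end windows (13) and 0.481% of the rest (623). The ends therefore held more windows of moderately high signal and fewer nearly empty ones.

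The 3 lower ends were on chromosomes 3, 8 and 24, where the end lay below the rest of their chromosome. The left end of chromosome 3 had a log2 ratio of -0.26 and -0.31 in the actl6a libraries and -0.08 and -0.04 in the control libraries, and stayed below the rest under every way of forming the ratio that kept it at 1 Mb. On chromosome 8 the left end averaged -0.08, and the right end of chromosome 24 averaged -0.07. For both of these the sign turned, to 0.04 and 0.16, when windows above 3 times the genome mean were left out. The dimmest end windows were chr3:970001-980000 with a mean signal of 0.0227 over the 4 libraries, chr25:40001-50000 with 0.0623 and chr3:950001-960000 with 0.0889.

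Signal fell off with distance from the end. The median window of the outermost 100 kb had a signal of 1.35 and 1.34 in the actl6a libraries and 1.43 and 1.40 in the control libraries. Between 400 and 500 kb from the end all 4 libraries had a median of 1.09. Just inside the limit, between 900 and 1000 kb, the mean signal was 0.968 and 0.960 in the actl6a libraries and 0.975 and 0.983 in the control libraries. Just outside it, between 1000 and 1100 kb, it was 0.973 and 0.958 in the actl6a libraries and 0.973 and 0.974 in the control libraries. The limit at 1 Mb therefore lay where the signal had already come down to about the genome mean, and most of the excess lay in the outer 500 kb.

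Means gave the same fall with 1 break. Averaged over the 4 libraries, the signal was 1.97 in the outermost 100 kb, 1.33 in the next step, 1.17 between 400 and 500 kb and 1.05 between 600 and 700 kb, and then 1.49 between 800 and 900 kb. Without windows above 3 times the genome mean, the outermost step was at 1.40 and the step between 800 and 900 kb at 1.02. The very last 10 kb of a chromosome were not set apart from the windows beside them: their median over the 49 ends was 1.38, against 1.37 for the next 10 kb, with 39 of 49 above the genome mean and 26 of 49 holding a peak.

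**Figure D2:**
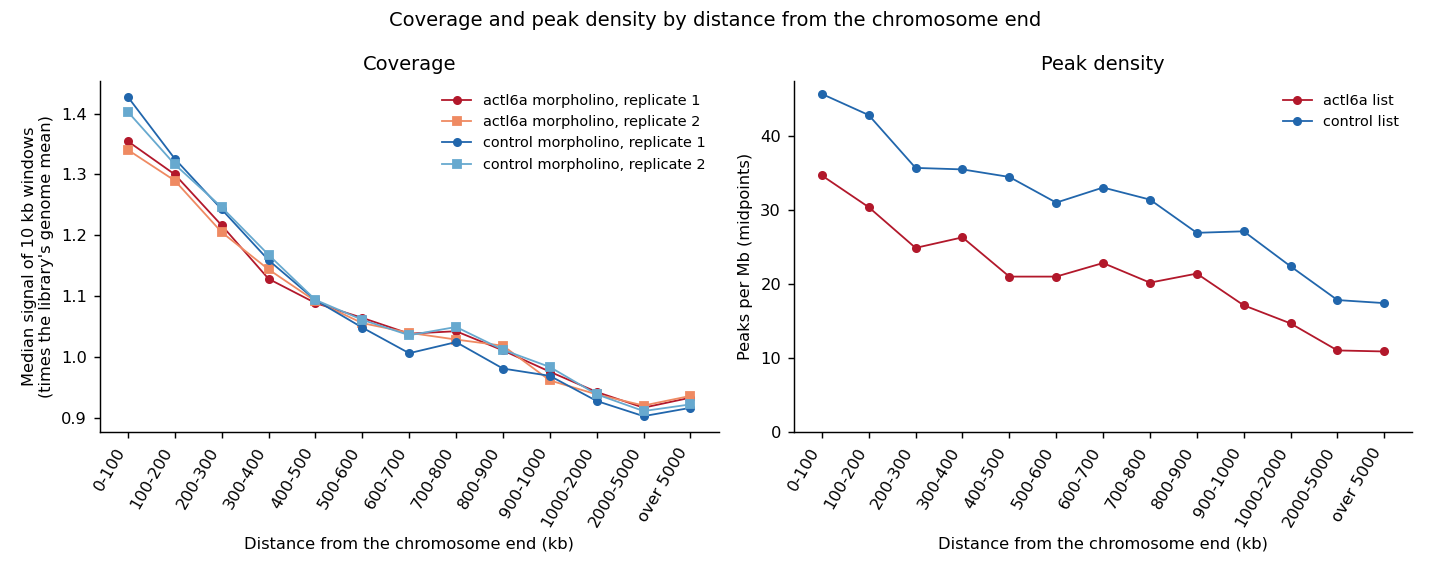
Median signal of the 10 kb windows in each library (left) and peaks per Mb in the actl6a list and in the control list (right), by distance from the chromosome end in kb. Both fall with distance, the control libraries stand above the actl6a libraries in the outermost 400 kb, and the control list is denser than the actl6a list at every distance.

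Stretches without any coverage were scarcer at the ends than in the rest taken as a whole. The share of 50 bp bins without coverage at the ends was 4.84% and 4.23% in the actl6a libraries and 6.99% and 5.74% in the control libraries. In the rest it was 5.50% and 4.67% in the actl6a libraries and 8.25% and 6.65% in the control libraries. Beyond 5 Mb from the 49 ends it was 4.74% and 3.96% in the actl6a libraries and 7.59% and 6.01% in the control libraries. Against that part the ends were thus lower in the control libraries only. Within the ends it rose inward, in actl6a replicate 1 from 3.86% in the outermost 100 kb to 6.97% between 900 and 1000 kb. The deeper the library, the lower was this share, at the ends as in the rest.

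Accessible sites listed as peaks were denser at the ends than in the rest, in the list of each group. The actl6a list had 24.0 peaks per Mb at the ends and 10.9 in the rest, a ratio of 2.21 (exact 95% interval 2.08 to 2.35, covering counting error only). The control list had 34.4 peaks per Mb at the ends and 17.3 in the rest, a ratio of 1.99 (1.89 to 2.09). With 1 list for each group there are no replicates of these densities and no test between them.

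Of the 2029 merged peaks at the ends, 349 were in the actl6a list only, 865 in the control list only and 815 in both lists. Peaks in both lists made up 40.2% of the merged peaks at the ends (38.0 to 42.3%) and 31.8% in the rest (31.3 to 32.4%). Peaks of the actl6a list only made up 17.2% at the ends and 19% in the rest, and peaks of the control list only 42.6% and 49.2%. The peaks called in both groups were thus the class most enriched at the ends, at 2.46 times the density of the rest (2.28 to 2.64), against 1.76 times (1.58 to 1.97) for peaks of the actl6a list only and 1.68 times (1.57 to 1.80) for peaks of the control list only.

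Peaks at the ends had a higher signal than peaks elsewhere, as did end windows in general. The median signal of a merged peak at the ends was 2.62 and 2.30 in the actl6a libraries and 3.26 and 2.91 in the control libraries. In the rest the median was 2.17 and 1.92 in the actl6a libraries and 2.71 and 2.45 in the control libraries. The order of the libraries was the same in both places and was the reverse of their depth. Peak signal was not corrected for the coverage around the peaks. The median end window was 1.19 and 1.18 times the median of the other windows in the actl6a libraries. In both control libraries it was 1.21 times that median. Whether peaks at the ends were raised beyond the coverage around them was not tested. Merged peaks had a median width of 558 bp at the ends and 524 bp in the rest, and 34.2% of the end windows and 18.9% of the other windows held at least 1 of them.

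Peak density was higher at 47 of the 49 ends than in the rest of their chromosome, by a median factor of 1.75. The merged peaks per end ran between 20 and 64, with a median of 39. The most were at the left end of chromosome 22 with 64, the left end of chromosome 4 with 61 and the right end of chromosome 11 with 60. On chromosome 4 the left end was 4.35 times as dense as the rest of that chromosome, which had 14.0 peaks per Mb. That rest included the part beyond 30 Mb. The left end of chromosome 22 and the right end of chromosome 11, with like numbers of peaks, had factors of 3.22 and 2.84. The rest of those chromosomes had 19.9 and 21.1 peaks per Mb. The higher factor on chromosome 4 thus went with a sparser rest and not with more peaks at its end.

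The fewest merged peaks were at the left ends of chromosomes 15, 24 and 3, with 20, 22 and 24. The left ends of chromosomes 15 and 3 were the 2 exceptions to the higher density, at 0.942 and 0.984 times the rest of their chromosome. The left end of chromosome 15 had few peaks but a raised coverage, with a mean log2 ratio of 0.29, whereas the left end of chromosome 3 was low in both. Across the 49 ends the number of peaks and the log2 ratio of coverage had a Pearson correlation of 0.16 and a Spearman correlation of 0.25, given as a description of ends that share the same 4 libraries.

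**Figure D3:**
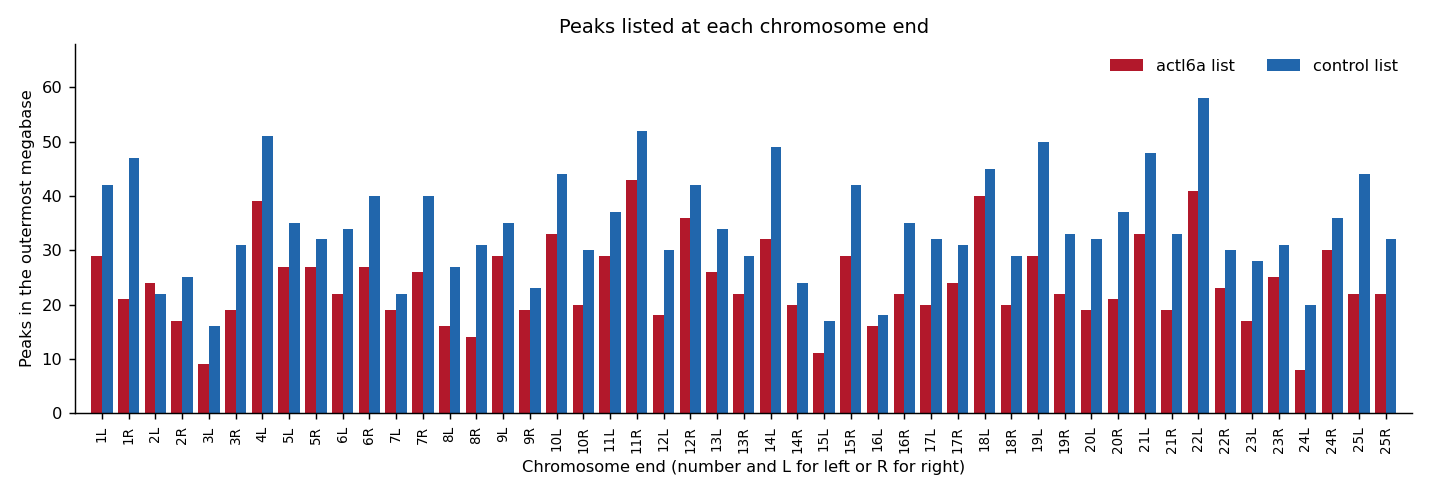
Number of peaks with their midpoint in the outermost megabase of each chromosome end, in the actl6a list (red) and the control list (blue). The control list has the taller bar at 48 of the 49 ends, the left end of chromosome 2 being the exception with 24 peaks in the actl6a list and 22 in the control list.

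Between the groups, coverage of the ends relative to the rest was lower in both actl6a libraries than in both control libraries. The mean over the 49 ends of log2(end/rest) was 0.286 and 0.248 in the actl6a libraries and 0.335 and 0.317 in the control libraries. The groups did not overlap, and averaged 0.267 ± 0.027 in the actl6a libraries and 0.326 ± 0.013 in the control libraries (SD, n = 2 each). The difference of -0.06 had a two-sided exact permutation p of 0.33, the smallest that 2 libraries against 2 allow. The 4 values were ordered inversely to depth, within each group as well as between them, and the part of depth in the difference was not tested.

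Block by block, 12 of the 49 ends were called lower in the actl6a libraries and none higher (limma on log2(signal + 0.5), adjusted p under 0.05, over 1343 blocks). Over all blocks, 4.24% were called lower, 6.18% higher and 10.4% either way, and 24 ends had an unadjusted p under 0.05, against 24.6% of all blocks. The actl6a libraries were both under the 2 control libraries at 31 of the 49 ends, or 63.3%, against 19.4% of all blocks. The estimate was below 0 at 45 ends, or 91.8% of them, against 38.3% of the interior blocks, and its median was -0.03 at the ends and 0.01 over all blocks. The median estimate over the ends was -0.02 without actl6a replicate 2, the deepest library, and -0.03 without control replicate 1, the shallowest one. It was -0.04 without actl6a replicate 1 and -0.04 without control replicate 2. Each of these fits leaves 1 group with a single library, and how many ends were called depended on the library left out. Without actl6a replicate 2, ends were called no more often than blocks in general. The right end of chromosome 17 had a log2 change of 0.09 without control replicate 2.

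The decreases were small. The 12 ends called lower were the left ends of chromosomes 3, 4, 5, 7, 13, 17 and 20 and the right ends of chromosomes 6, 13, 14, 15 and 20. Their log2 changes lay between -0.28 and -0.05, and 9 of them between -0.08 and -0.05. Most ends thus differed by a few percent between groups.

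The left end of chromosome 5 had a signal of 3.30 and 2.74 in the actl6a libraries and 4.10 and 3.45 in the control libraries. Its groups did not overlap, with a log2 change of -0.28 ± 0.05 (SE, limma adjusted p = 0.000206), but without actl6a replicate 2 the change was -0.16 and the adjusted p 0.191. On chromosome 7 the left end had 2.64 and 2.30 in the actl6a libraries and 2.96 and 2.62 in the control libraries. Its groups overlapped, and its log2 change of -0.15 ± 0.04 (adjusted p = 0.0113) was -0.06 without actl6a replicate 2 and -0.07 without control replicate 1, neither of them called. The median of the window changes was -0.01 at the left end of chromosome 5 and 0.03 at that of chromosome 7, which hold the very bright windows.

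On chromosome 3 the left end had a signal of 0.798 and 0.773 in the actl6a libraries and 0.894 and 0.926 in the control libraries. The groups did not overlap, and the log2 change of -0.13 ± 0.02 (limma adjusted p = 1.95e-08) passed the test with any 1 library left out. The 3 ends with the largest increases were the right end of chromosome 17 with a log2 change of 0.04, that of chromosome 5 with 0.02 and that of chromosome 9 with 0.005. None of these passed the test with all libraries, and the sign at the right end of chromosome 9 turned under other scalings.

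When each end was set against the rest of its own chromosome, which removes any effect of the genome-wide scaling, 16 ends were called lower and none higher, against 5.44% lower, 7.89% higher and 13.3% either way over all blocks. The estimate was below 0 at 48 of 49 ends, with the right end of chromosome 17 as the exception at 0.05, and at 45.8% of the interior blocks. Both actl6a libraries were below both control libraries at 34 ends, or 69.4%, against 24.9% of all blocks. The spread in this fit came from the trend over all blocks and not from the libraries of each end. The left end of chromosome 7 was among the 16 although its groups overlapped. With medians of windows in place of means 4 ends were called lower. The share over all blocks in that fit is not given here, so no conclusion is drawn from the 4.

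**Figure D4:**
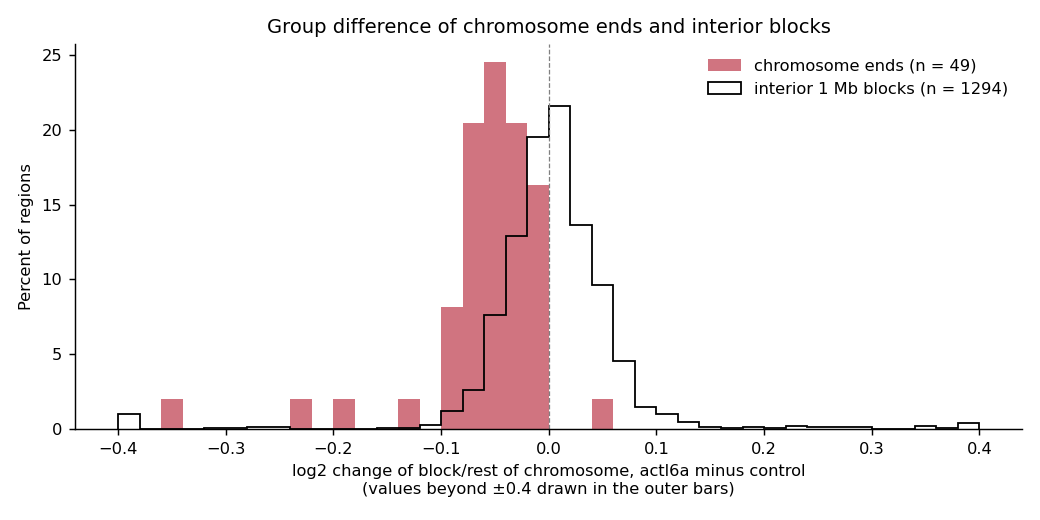
Distribution of the group difference, actl6a minus control, in log2(block/rest of its chromosome) for the 49 chromosome ends (red) and the 1294 interior blocks of 1 Mb (black outline), as percent of each class in bins of 0.02. The ends are centred at -0.05 and all but 1 lie below 0, while the interior blocks are centred close to 0.

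Ends had lower relative changes than interior blocks with a like number of peaks. Ends with 30 to 39 merged peaks had a median relative change of -0.05 and were all below 0 (23 of 23), whereas interior blocks with as many peaks had a median of 0.003, with 44.1% below 0 (n = 179). Interior blocks with 40 to 49 peaks had a median of -0.02, with 78.6% below 0 (n = 28), and the 9 ends in that class had a median of -0.06. Across the 49 ends the number of peaks and the relative change had a Pearson correlation of 0.02 and a Spearman correlation of -0.01. These are descriptions and were not tested.

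The difference between groups narrowed with distance from the end. In the outermost 100 kb the mean signal was 1.96 and 1.81 in the actl6a libraries and 2.11 and 2.0 in the control libraries, a log2 difference of -0.13. Between 100 and 200 kb it was 1.32 and 1.29 in the actl6a libraries and 1.38 and 1.35 in the control libraries, a difference of -0.07. Between 400 and 500 kb the difference was -0.04, between 600 and 700 kb it was -0.0004, and beyond 5 Mb it was 0.005.

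The groups did not overlap in any 100 kb step out to 1 Mb other than that between 600 and 700 kb. Each of those steps had the smallest exact permutation p possible, 0.33. Groups without overlap were not particular to the ends. Between 2 and 5 Mb the signal was 0.930 and 0.931 in the actl6a libraries and 0.924 and 0.927 in the control libraries. Beyond 5 Mb it was 1.005 and 1.007 against 1.002 and 1.003. Both had the same p, with the actl6a libraries the higher ones. The step between 800 and 900 kb had a difference of -0.16, which was -0.01 without windows above 3 times the genome mean, the bright stretch of chromosome 5 lying in it. In the outermost 100 kb the difference was -0.10 both without such windows and with merged peaks left out. It was -0.07 without actl6a replicate 2 and -0.18 without actl6a replicate 1. The share of windows with a lower signal in the actl6a libraries was 68.4% in the outermost 100 kb, 65.1% in the next step, 55.3% between 400 and 500 kb and 46.0% beyond 5 Mb.

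Merged peaks listed for the control group only outnumbered those listed for the actl6a group only, so splitting windows by merged peaks is not independent of the group difference, and the medians that follow are a description. The 1678 end windows that held a merged peak had a median log2 change of -0.06, and the 3222 without one had a median of 0.001. In the rest the medians were -0.02 with a peak and 0.02 without. In both classes the end windows thus had the lower median.

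Single windows gave few calls. Of the 4900 end windows, 35 differed between groups, 8 being higher and 27 lower in the actl6a libraries (limma, adjusted p under 0.05), or 0.714% of them. At an unadjusted p under 0.05 there were 543, or 11.1%, against 8.8% of all windows. Over all windows 1.33% were called, 0.455% higher and 0.871% lower, but 69.7% of those calls lay on chromosome 4 beyond 30 Mb. With chromosome 4 left out before the fit, 34 end windows (0.708%) were called, 3 higher and 31 lower, against 0.240% of all windows. The count of 35 was 23 when the left end of chromosome 3 was not counted. It also depended on the library left out, as did the share called over all windows. The median log2 change of the end windows ran from -0.02 to -0.01 when 1 library was left out. Both actl6a libraries were below both control libraries in 23.5% of the end windows and in 17.4% of all windows, and above both in 15.7% and 20.6%.

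The 35 windows lay in 16 ends. Chromosome 3 had 12 of them at its left end, 11 of which were lower, the right end of chromosome 2 had 4 and the right end of chromosome 1 had 3. A merged peak, of whichever list, was present in 16 of the 27 lower windows and in none of the 8 higher ones, against 34.2% of all end windows. Merged peaks of the control list only outnumbered those of the actl6a list only. Lower windows were thus favoured by selection to hold one, and these counts are a description. Most lower windows away from chromosome 3 held peaks, while those on chromosome 3 mostly did not.

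The 5 largest decreases included 4 windows of the left end of chromosome 3. The window chr3:510001-520000 had 0.437 and 0.470 in the actl6a libraries and 0.894 and 0.975 in the control libraries, a log2 change of -0.59 ± 0.09 (SE, limma adjusted p = 0.00186). The window chr3:590001-600000 had 0.303 and 0.438 in the actl6a libraries and 0.743 and 0.806 in the control libraries, and chr3:600001-610000 had 0.663 and 0.460 in the actl6a libraries and 1.1 and 1.0 in the control libraries. In all 3 windows the actl6a libraries had about 0.5 times the control signal, and the groups did not overlap. The call at chr3:600001-610000 was lost without actl6a replicate 2 (log2 change -0.41, adjusted p = 0.129). The window chr3:490001-500000 had a log2 change of -0.52 (adjusted p = 0.0394), at 0.565 and 0.695 in the actl6a libraries and 0.925 and 1.35 in the control libraries. Its call was lost without actl6a replicate 1 (-0.44, adjusted p = 0.0686) and without control replicate 2 (-0.34, adjusted p = 0.198). None of these 4 windows held a peak.

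The other large decrease was at the right end of chromosome 2, where chr2:59220630-59230629 had 1.56 and 1.74 in the actl6a libraries and 2.74 and 2.55 in the control libraries (log2 change -0.55 ± 0.08, limma adjusted p = 0.000724). This window lay 410 kb from the end and held 2 merged peaks. One of those peaks, chr2:59227539-59227763, had 1.25 and 1.44 in the actl6a libraries and 4.41 and 4.01 in the control libraries. It missed the threshold on its own (limma adjusted p = 0.0575). This peak was in the control list only, so it entered the tested set through the group where it was high.

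The largest increase was in chr15:200001-210000, with 1.40 and 1.28 in the actl6a libraries and 0.825 and 0.911 in the control libraries (log2 change 0.43 ± 0.09, limma adjusted p = 0.0241). The window chr1:59118283-59128282 had 1.82 and 1.77 in the actl6a libraries and 1.19 and 1.29 in the control libraries. The window chr17:53001101-53011100 had 1.53 and 1.75 in the actl6a libraries and 1.08 and 1.17 in the control libraries. The groups did not overlap in any of these, and each was higher by about 0.4 on the log2 scale. All 3 calls were lost without control replicate 1 (limma adjusted p = 0.0794, 0.0608 and 0.0925), those on chromosomes 15 and 1 also without actl6a replicate 1 (0.175 and 0.0720), and that on chromosome 17 also without actl6a replicate 2 (0.322).

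The remaining 2 named increases were neighbours at the right end of chromosome 23. Of these, chr23:45333585-45343584 had 0.477 and 0.535 in the actl6a libraries and 0.327 and 0.247 in the control libraries, and chr23:45343585-45353584 had 0.390 and 0.471 in the actl6a libraries and 0.284 and 0.258 in the control libraries. Both had well under the genome mean in every library. Since 0.5 was added before the logarithm, their log2 changes of 0.36 and 0.27 understate the ratio of the signals. Both calls were lost without control replicate 2 (limma adjusted p = 0.0741 and 0.0747) and with chromosome 4 left out of the fit (0.106 and 0.347), and the call of the window nearer the end was also lost without actl6a replicate 2 (0.0988).

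Within the left end of chromosome 3 the decrease was spread over a long stretch. Between 400 and 500 kb the mean signal was 0.783 and 0.829 in the actl6a libraries and 1.01 and 1.08 in the control libraries. Between 600 and 700 kb it was 0.771 and 0.721 in the actl6a libraries and 0.940 and 1.01 in the control libraries. The log2 difference was -0.37, -0.36, -0.38 and -0.34 in the 4 steps between 400 and 800 kb, and the groups did not overlap in any of them. It was -0.18 in both steps between 200 and 400 kb, -0.03 in the outermost 100 kb and 0.04 between 800 and 900 kb.

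Beyond this stretch, between 900 and 1000 kb, the signal was 0.332 and 0.296 in the actl6a libraries and 0.351 and 0.330 in the control libraries, a log2 difference of -0.12, and coverage there was low in all 4 libraries. Of the called windows beyond 800 kb, chr3:890001-900000 was lower, with 0.128 and 0.0689 in the actl6a libraries and 0.231 and 0.144 in the control libraries (limma adjusted p = 0.0431). The other, chr3:940001-950000, was higher, with 0.181 and 0.150 in the actl6a libraries and 0.117 and 0.0288 in the control libraries (adjusted p = 0.0172). The neighbouring block between 1 and 2 Mb of chromosome 3 had a log2 change of -0.03 (limma adjusted p = 0.209), that between 2 and 3 Mb one of -0.02 (adjusted p = 0.437), and that between 3 and 4 Mb one of -0.05 (adjusted p = 0.0385). The 4 steps between 400 and 800 kb held 3, 1, 1 and 0 merged peaks. Of the 24 merged peaks of the whole end 8 were in the actl6a list only, 15 in the control list only and 1 in both.

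**Figure D5:**
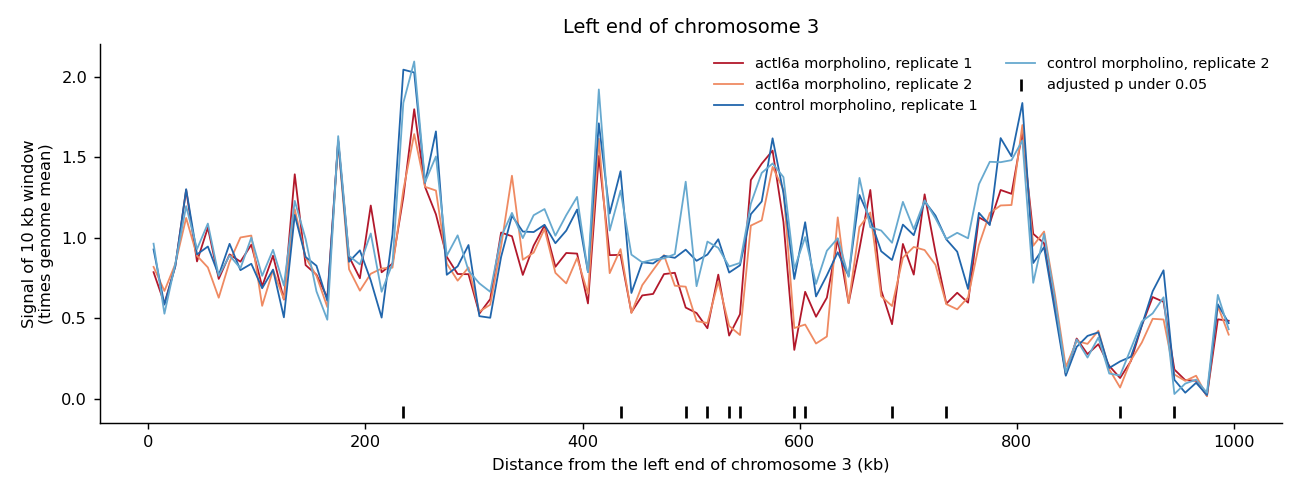
Signal of the 10 kb windows of the left end of chromosome 3 in each library (actl6a in red and orange, control in blue), by distance from the end in kb, with ticks under the lines at the 12 windows with an adjusted p under 0.05. The log2 difference was -0.03 in the outermost 100 kb and 0.04 between 800 and 900 kb, 2 of the ticks lie beyond 800 kb, and the actl6a lines lie below the control lines through most of the stretch between 400 and 800 kb.

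Merged peaks held 7.30% and 6.28% of the end signal in the actl6a libraries and 9.06% and 7.76% in the control libraries. The groups did not overlap, with means of 6.79% ± 0.721 in the actl6a libraries and 8.41% ± 0.919 in the control libraries (SD, n = 2 each). No test of this share is given, because the merged set held more peaks of the control list only, which are high in the control libraries by selection, and its make-up bears on the direction. Without control replicate 1 the difference of -1.62 percentage points was -0.969. With the peaks of the actl6a list alone the difference was -0.618 percentage points and the groups overlapped. Among the peaks at the ends that were in both lists, the median signal was 3.63 and 2.84 in the actl6a libraries and 4.71 and 3.79 in the control libraries.

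In the rest the share was 4.16% and 3.73% in the actl6a libraries and 5.12% and 4.60% in the control libraries. The ratio of the end share to the rest share was 1.76 and 1.68 in the actl6a libraries and 1.77 and 1.69 in the control libraries. These ratios overlapped between the groups, with a difference of -0.01. They rest on the same merged set as the shares. An exact permutation test of 2 libraries against 2 also cannot go below p = 0.33, so no conclusion is drawn from them.

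The median log2 change of the 2029 merged peaks at the ends was -0.36, and in the rest it was also -0.36. With the actl6a list alone it was -0.15 at the ends and -0.05 in the rest, and with the control list alone -0.45 and -0.47. These medians move with the list that defines the peaks and are given as a description. Of those at the ends, 2 were called, 1 higher and 1 lower in the actl6a libraries (limma, adjusted p under 0.05), against 0.233% of all merged peaks called, 0.101% higher and 0.132% lower. The count of 2 was higher when any 1 library was left out, and how much higher depended on the library. The share over all merged peaks in those fits is not given here, so no conclusion is drawn from the rise. At an unadjusted p under 0.05 there were 416, or 20.5% of them, against 22.9% of all merged peaks. The 2 actl6a libraries were under both control libraries at 47.0% of the peaks at the ends and at 47.1% of all merged peaks.

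The lower peak, chr12:49168242-49168830, lay 14.4 kb from the right end of chromosome 12 and had 1.55 and 1.06 in the actl6a libraries and 6.09 and 3.65 in the control libraries (log2 change -1.55 ± 0.34, limma adjusted p = 0.0450). The window that holds it, chr12:49162955-49172954, was called lower with a log2 change of -0.44, a value that includes the signal of the peak itself. The window beside that one, chr12:49152955-49162954, was called lower with a log2 change of -0.51. The higher peak, chr9:256916-257191, had 3.50 and 2.26 in the actl6a libraries and 0.213 and 0.779 in the control libraries (log2 change 1.80 ± 0.40, adjusted p = 0.0450). The lower peak was in the control list only and the higher peak in the actl6a list only, so each entered the tested set through the group where it was high. The groups did not overlap at either peak, and both calls were lost with chromosome 4 left out of the fit (adjusted p = 0.0594 for both). Without control replicate 1 or without actl6a replicate 2 neither was called (limma adjusted p between 0.0655 and 0.144), and without actl6a replicate 1 the higher peak was not called either (0.176).

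Other peaks with large differences did not reach the threshold. Among those lower in both actl6a libraries, chr5:911411-911892 had 0.297 and 0.924 in the actl6a libraries and 2.12 and 3.33 in the control libraries, and chr15:47367246-47367572 had 0.603 and 0.552 in the actl6a libraries and 3.18 and 2.13 in the control libraries (limma adjusted p = 0.0576 for both). Among those higher in both actl6a libraries, chr1:59574137-59574344, only 4.04 kb from the right end of chromosome 1, had 3.01 and 4.97 in the actl6a libraries and 0.821 and 1.67 in the control libraries (adjusted p = 0.0576). Each of these was listed in only the group where it was higher.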

How the data were processed

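The deposited tracks hold signal in 50 bp bins, that is, normalised coverage made by the authors for each of 4 libraries. The 2 deposited peak lists give starts and ends only, 1 list for each group. Per the submitters' processing notes, Trim Galore, FastQC, Bowtie2, deepTools, MACS2 and GRCz11 were used, and their versions, settings and read filters are not given in the sources used here. Depth was inferred from the smallest step of the values: 99.999% of values of up to 20 steps were whole multiples of it within 0.1. Window, 1 Mb block and merged peak means were divided by the library's mean on chromosomes 1 to 25. Peaks touching or overlapping by at least 1 bp were merged and placed by midpoint. Groups were compared with limma 3.58.1 (R 4.3.3; trend, two-sided, Benjamini-Hochberg over all features) on log2(signal + 0.5), which understates changes of low values, and with exact permutation tests over libraries. The group comparisons of windows, 1 Mb blocks and merged peaks were also run on simulated data with normal noise. The outcome is not given here, and the fits on log2(block/rest of its chromosome) were not simulated. In the main fits on log2(block/rest of its chromosome), the spread came wholly from the trend over all blocks. The other computations ran in Python 3.11.15 (scipy 1.17.1, pandas 2.3.3, numpy 2.4.6), with matplotlib 3.10.9 for the plots. Intervals on densities and shares are exact 95% intervals that treat peaks as independent and cover counting error only.

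Ends named in the text are the 3 highest and 3 lowest in coverage, in number of peaks and in group change. Windows named are the 5 largest called changes each way, the 5 brightest and the 3 dimmest; for peaks, the largest 5 each way were ranked, topped up by uncalled ones. The 4 ends with a window above 10 times the mean, the windows at the called chromosome 12 peak and the steps within the left end of chromosome 3 were added after their values were seen, as was the fit on log2(end/rest). The ends and these lists were chosen with earlier results of these data known. Alternatives covered the scaling, the added constant, filters, window and end length, peak lists, the replicate block and leaving out each library.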

Additional observations from a re-analysis of the deposited data

How the results depend on the processing

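With 2 libraries for each group, an exact test over libraries cannot go below p = 0.33. Fits without 1 library take the spread of the group left with a single library from the other group. The count of 45 ends above the rest of their chromosome was the same without each library, and ran between 35 (ends of 2 Mb) and 48 under the other alternatives. Of single ends, the left end of chromosome 8 was at 0.041 and the right end of chromosome 24 at 0.16 without windows above 3 times the mean, and the right end of chromosome 24 was at 0.12 with medians of windows. The change of the right end of chromosome 9 was -0.0099 on median scaling, -0.0052 on scaling outside peaks and -0.0019 with no scaling, and ran from -0.016 to 0.026 leaving out 1 library. The cause of the differences between settings was not tested.

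End windows called (35) numbered 54 with a mean signal of at least 0.2, 6 without a variance trend, 55 at an adjusted p under 0.1 and, added after seeing the data, 23 without the left end of chromosome 3; leaving out 1 library gave 31 to 97. Ends called (12, all lower) numbered 23 on median scaling, 20 on scaling outside peaks and 19 at an adjusted p under 0.1, and on log2(end/rest), added after seeing the data, 23 for ends of 0.5 Mb and 4 with medians of windows; leaving out 1 library gave 2 to 15 ends called, all lower except the right end of chromosome 17, called higher among the 15. Merged peaks called (2) numbered 0 with no scaling and 0 with 0.1 added before the logarithm (416 at an unadjusted p under 0.05 by limma in each). They numbered 8 with 1 added, 6 without a trend and 61 at an adjusted p under 0.1. On the control list 10 were called, on the actl6a list 4, and 5 among peaks of at least median signal. Added after seeing the data, 0 were called without chromosome 4 (405 unadjusted, limma). The shares over all merged peaks in these fits are not given here, so no conclusion is drawn from the counts.

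The density ratio of merged peaks was 2.14 for ends of 0.5 Mb, 1.65 for ends of 2 Mb and 2.66 for peaks of at least median signal. For the actl6a list these were 2.49, 1.81 and 2.77, and for the control list 2.22, 1.66 and 2.78. Leaving out 1 library, the group difference in mean log2(end/rest) ran from -0.08 to -0.04 and that in the share of end signal in peaks from -2.27 to -0.969 percentage points. By distance it ran from -0.18 to -0.07 in the outermost 100 kb, from -0.22 to -0.09 between 800 and 900 kb and from 0.004 to 0.007 beyond 5 Mb.

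The labels do not say whether replicate numbers pair the libraries, and 2 pairs cannot decide it. Deviations of same-numbered libraries correlated at 0.09 over end windows and 0.08 over merged peaks at the ends. In both groups replicate 1 was the shallower library. It also had the higher mean log2(end/rest) and the higher share of end signal in merged peaks. With the replicate number as a block, 115 of 4900 end windows (99 lower) were called, against a like share, 2.16%, of all windows. In the block fit 22 of 49 ends (21 lower) were called, against 15.4% of all blocks. At the ends 210 merged peaks (194 lower) were called. The share over all merged peaks in that fit is not given here, so no conclusion is drawn from the 210. With libraries paired by replicate number, the mean log2(end/rest) difference of -0.06 had a two-sided exact sign-flip p of 0.5. This is the smallest that 2 pairs allow, so no conclusion is drawn from it.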
